A study of Mus musculus with 8 samples.

Results

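Transcripts of 32 genes for fatty acid uptake and oxidation were followed in whole mouse hearts under pressure overload, among 17191 genes listed in the deposited table. The genes were taken by symbol, all 32 were listed once, and all 32 passed the filter on low counts that left 12998 genes for testing. The hearts came from mice with the S727A mutation of STAT3, a transcription factor whose serine at that position, normally phosphorylated, is replaced by alanine (4 libraries), and from wild-type mice (WT, 4 libraries). Every animal had undergone transverse aortic constriction (TAC), a narrowing of the aorta that loads the left ventricle, for 4 weeks, and no unoperated hearts were analysed here. The labels give no strain, age or sex and do not say which cells carry the mutation. They do not say whether each library came from a separate animal, so each p-value reflects only how these libraries vary, which may be technical.

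The adult heart obtains most of its ATP by burning long-chain fatty acids. Lipoprotein lipase releases them from blood lipids, CD36 and transport proteins carry them into the myocyte, and acyl-CoA synthetases activate them. The carnitine shuttle then moves them into mitochondria under the control of malonyl-CoA, and a 4-step spiral of beta-oxidation shortens them while electron transfer flavoprotein passes electrons to the respiratory chain. Many of these genes are targets of the nuclear receptor PPAR-alpha and its PGC-1 coactivators, and their expression is known to decline in hypertrophied and failing hearts.

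Total counts were 10577619 to 13305124 per library, and the 32 genes held 2.11% to 2.31% of them in S727A and 2.16% to 2.68% in WT libraries. All 10 fixed cardiomyocyte markers were detected, with summed levels of 41268 to 48214 CPM (each library's counts scaled to a common total by the TMM method) in S727A and 35839 to 44914 CPM in WT. Transcripts of the Y chromosome were nearly missing from S727A 4 (9 counts) and WT 4 (6 counts), while the remaining libraries had 1940 to 2225. The airway and lung markers summed to 132 CPM in WT 1 and 55.1 CPM in WT 4, against 0 to 1.97 CPM elsewhere. White adipocyte markers summed to 35.7 CPM in WT 2 and 50.2 CPM in WT 4, against 2.30 to 11.9 CPM elsewhere, with the defining marker Adipoq at no more than 5.61 CPM. Since these are whole hearts, fewer cells of a type and less RNA per cell cannot be told apart. The sources used here do not say how reads common to near-identical genes were assigned.

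Levels were first compared between genes, on the length-corrected FPKM scale of the authors. Fabp3, the cytosolic fatty acid-binding protein of heart, stood far above all others at 5508 ± 555 FPKM in WT and 5349 ± 302 FPKM in S727A (mean ± SD, n = 4 each). Lpl, lipoprotein lipase, followed at 1430.1 ± 173 FPKM in WT, and Hadhb, a subunit of the mitochondrial trifunctional protein, at 870.4 ± 89.8 FPKM. From there a closely spaced run led from Cd36 (511 ± 46.5 FPKM) over Acadm (490.2 ± 84.5 FPKM) and Acadl (484 ± 73.5 FPKM) to Hadha (470.0 ± 63.1 FPKM), and those neighbours did not differ beyond their spread in WT. At the lower end lay Acot1 (5.04 ± 1.86 FPKM), Acaca (3.47 ± 0.822 FPKM) and Angptl4 (2.21 ± 0.395 FPKM). The muscle form of the outer carnitine enzyme, Cpt1b, dominated the liver form Cpt1a in both groups. Cpt1a made up 3.69% to 6.56% of the summed FPKM of the pair in S727A and 4.54% to 5.83% in WT libraries.

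**Figure D1:**
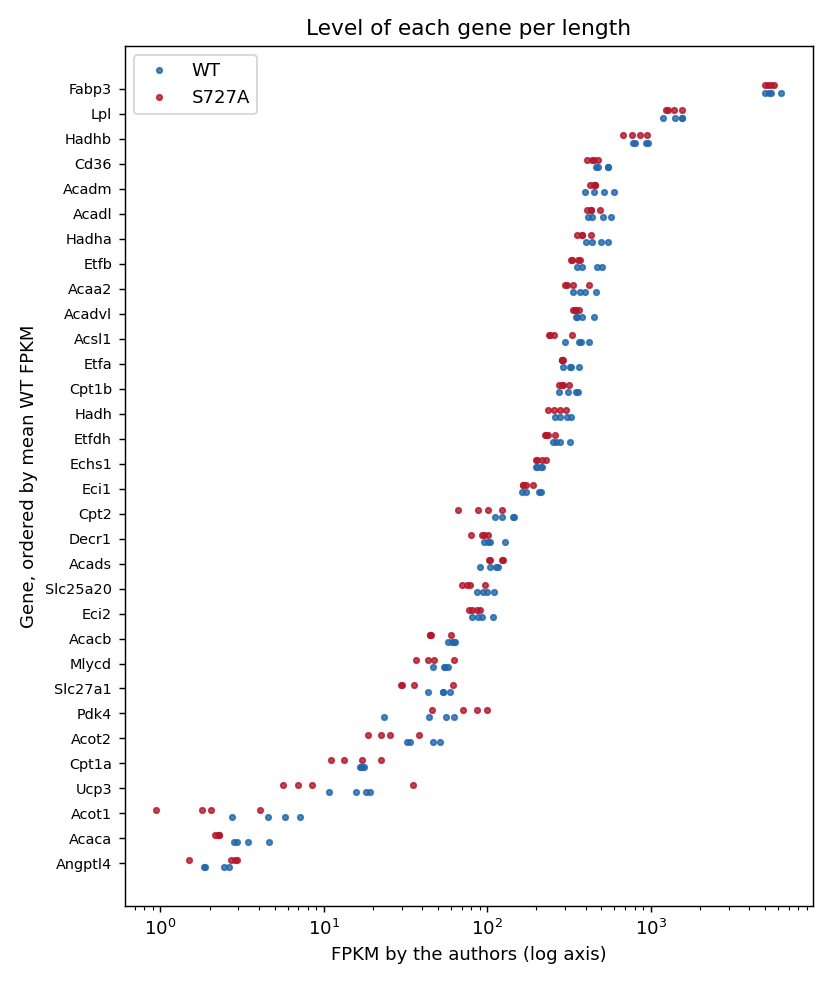
Level of each of the 32 genes in FPKM (log axis), with 1 point for each of 4 WT (blue) and 4 S727A (red) libraries, ordered by the WT mean. Levels run from Angptl4 at 2.21 FPKM to Fabp3 at 5508 FPKM in WT, and the colours overlap for nearly all genes.

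No gene of the set passed the comparison of genotypes (edgeR quasi-likelihood test, Benjamini-Hochberg adjusted p under 0.05 over all 12998 genes), where 0.1% of all tested genes were called lower and 0.0462% higher. Adjusted p ran from 0.118 to 0.975 over the 32. The differences lay mostly to one side: 28 of the 32 genes (87.5%) had a lower fitted level in S727A, against 50.6% of all tested genes, and the median log2 fold change was -0.14, against -0.00 over all genes. At an unadjusted p under 0.05, 10 of the 32 (31.25%) were lower and 0 higher, where all tested genes gave 8.79% lower and 8.97% higher. Groups that did not overlap were found for 1 gene, Acaca, which is 3.1% of the set and below the 4.36% of all genes with every S727A library under every WT library (4.07% had the reverse order, and 0 of the set did). The authors' deposited table lists 2 of the 32, Acaca (q = 0.0259) and Acsl1 (q = 0.0481), below q of 0.05 as lower and 0 as higher, where 1.24% and 1.38% of the 17137 genes with a q in that table are.

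The count of 10 was not the same when a library was left out. It was 5 without S727A 1, 5 without S727A 2, 4 without S727A 3, 3 without WT 1, 7 without WT 2 and 6 without WT 4, but 13 without S727A 4 and 13 without WT 3. Calls over all tested genes also moved with the library left out (edgeR adjusted p under 0.05). They were 0 without S727A 1, S727A 3 or WT 1. Without S727A 4 there were 320 lower and 297 higher, and without WT 3 111 lower and 164 higher. Without WT 1 the median of the set was -0.08. Without both libraries that held airway transcripts, WT 1 and WT 4, it was -0.06 with 1 gene of the set under 0.05. WT 1 was the highest WT library for 24 of the 32 genes, so leaving it out favours smaller differences in the set. The part of the airway transcripts in this was not tested. The share of all genes at unadjusted p under 0.05 was not counted in these runs, so the counts of the set cannot be set against it. Leaving out a library also changes the power for every gene. When libraries were scaled to the cardiomyocyte markers the median of the set was -0.25 while that of all genes shifted to -0.11, a difference between them of -0.14.

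**Figure D2:**
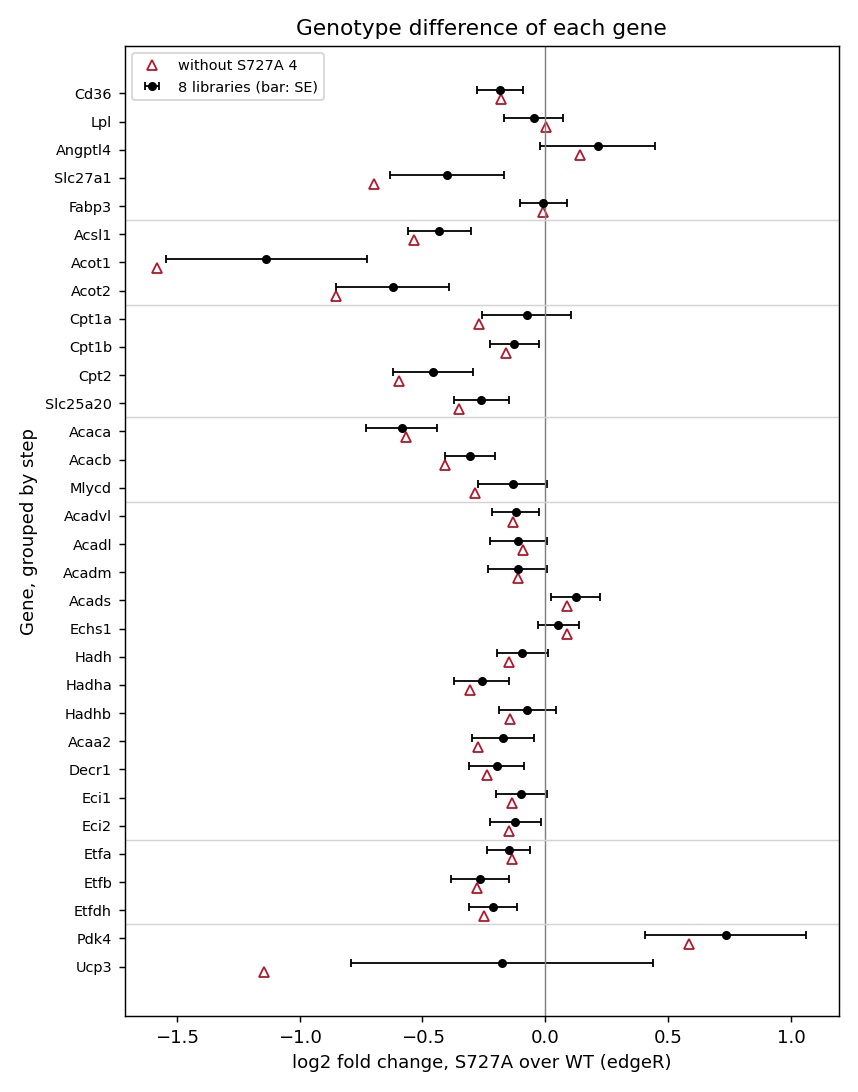
Log2 fold change of S727A over WT for each gene, grouped by step, from edgeR. Black points with SE bars use 8 libraries, and open triangles leave out S727A 4 (no error drawn). 28 of 32 black points lie left of 0, and Acot1 lies farthest left at -1.14.

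Of the 5 genes of uptake, 4 had log2 fold changes between -0.18 and 0.21, and Slc27a1 one of -0.40. Cd36, the main fatty acid translocase of muscle (chromosome 5, 17781690 to 17888801, minus strand, GRCm38), was at 1248, 1357, 1146 and 1243 CPM in S727A 1 to 4. In WT 1 to 4 it was at 1553, 1343, 1263 and 1517 CPM, so WT 2 and WT 3 lay within the S727A range and the groups overlapped. Its log2 fold change was -0.18 ± 0.10 (edgeR SE, adjusted p = 0.335). Lpl, whose product acts at the capillary wall, and Fabp3 had log2 fold changes of -0.05 ± 0.12 and -0.01 ± 0.10 (SE). Angptl4, which encodes an inhibitor of lipoprotein lipase, was at 5.14, 5.40, 2.76 and 5.36 CPM in S727A and at 3.45, 4.49, 4.76 and 3.43 CPM in WT. S727A 3 held the lowest value of all 8 libraries and the other S727A libraries the highest, and the log2 fold change was 0.21 ± 0.23 (edgeR SE, adjusted p = 0.677).

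Slc27a1, a fatty acid transport protein with acyl-CoA synthetase activity (chromosome 8, 71568882 to 71587302, plus strand), was at 111, 92.0 and 89.4 CPM in S727A 1 to 3 but at 187 CPM in S727A 4. WT libraries 1 to 4 held 162, 163, 128 and 180.0 CPM, so S727A 4 was the highest of all 8 libraries and the other 3 S727A libraries were the lowest. The log2 fold change was -0.40 ± 0.23 with all libraries (edgeR SE, adjusted p = 0.398) and -0.70 without S727A 4 (edgeR adjusted p = 0.0189). That run drops the highest value of the gene. With any other single library left out, the edgeR adjusted p was 0.326 to 0.635.

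At the step of activation and its reversal all 3 genes had a fold below 0, against 50.6% of all tested genes. Their median log2 fold change was -0.62. Acsl1, the main long-chain acyl-CoA synthetase of heart (chromosome 8, 46471037 to 46536051, plus strand), was at 890.3, 963, 887 and 1191 CPM in S727A 1 to 4. The WT libraries held 1540.0, 1345, 1072 and 1346 CPM. All S727A values except that of S727A 4 were below the lowest WT value, WT 3. Group means were 983 ± 143 and 1326 ± 193 CPM (SD, 4 libraries each), and the log2 fold change was -0.43 ± 0.13 (edgeR SE, adjusted p = 0.139).

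Acot1 and Acot2 encode thioesterases, of the cytosol and the mitochondria, that split acyl-CoA back into fatty acid and CoA. They are neighbours on chromosome 12, with 15616 bases between them (83987861 to 83993873 for Acot2 and 84009490 to 84018371 for Acot1, both plus strand). Their longest coding transcripts in GENCODE M21 agree in 94.3% of 1330 aligned bases, so the division of reads between them is uncertain. Acot2 was at 41.2, 55.8, 47.8 and 81.7 CPM in S727A and at 111, 69.8, 70.7 and 97.7 CPM in WT. Again S727A 4 alone lay within the WT range, and the log2 fold change was -0.62 ± 0.23 (edgeR SE, adjusted p = 0.217). Acot1, at far lower counts, held 3.19, 2.78, 1.43 and 6.06 CPM in S727A and 10.7, 6.74, 4.03 and 8.49 CPM in WT. Its log2 fold change of -1.14 ± 0.41 (edgeR SE, adjusted p = 0.203) had the largest size in the set. Acot2 gave 87.8% to 92.5% of the summed FPKM of the pair in WT and 90.2% to 96.0% in S727A libraries.

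**Figure D3:**
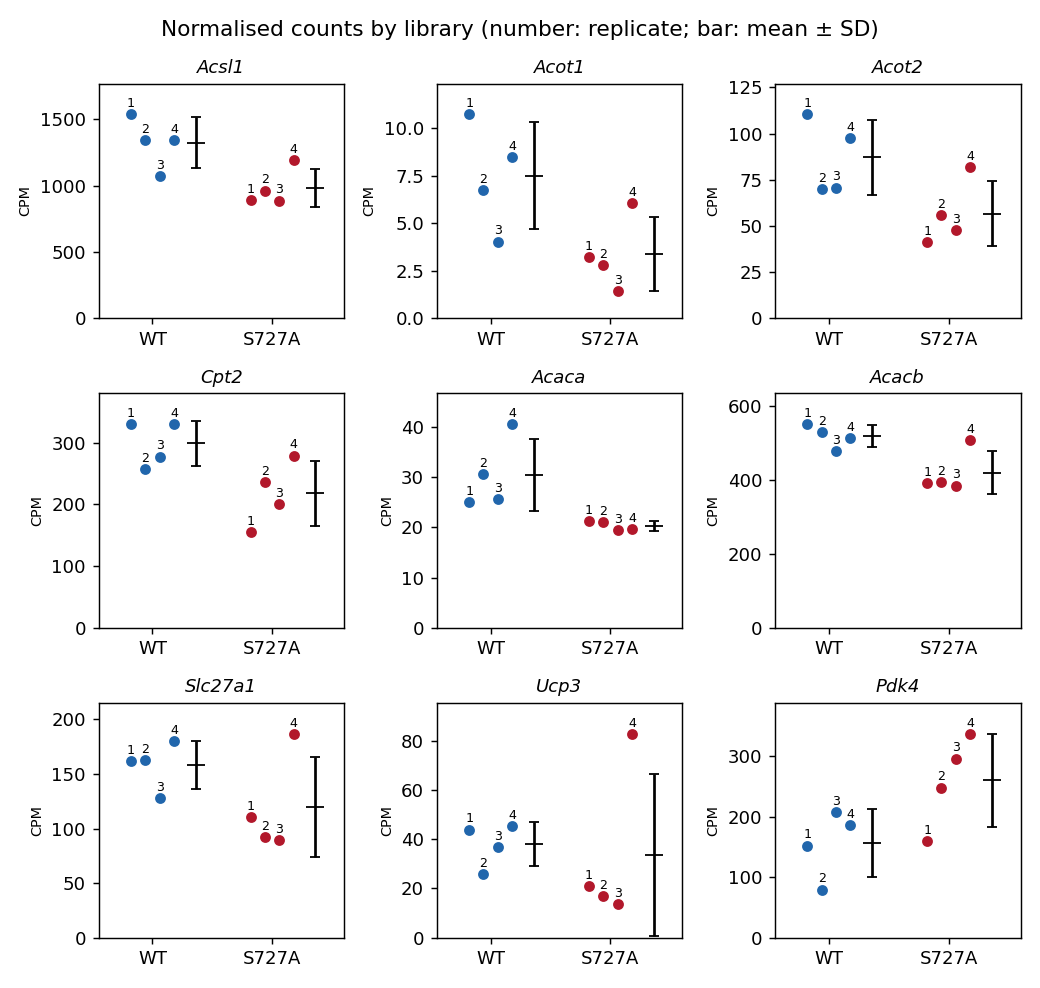
CPM in each library for 9 genes, with replicate numbers at the points and the mean ± SD of each group as a bar (axes start at 0). S727A 4 lies within or above the WT points in all panels except Acaca, where all 4 S727A points lie at 19.4 to 21.2 CPM below the WT points.

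The carnitine shuttle has an outer and an inner enzyme. Cpt1b, the rate-limiting entry enzyme in muscle, was at 841, 830.0, 779 and 896 CPM in S727A and 1025, 780.4, 869 and 979 CPM in WT. WT 2 and WT 3 lay within the S727A range, and the log2 fold change was -0.13 ± 0.10 (edgeR SE, adjusted p = 0.533). Cpt2, which rebuilds acyl-CoA inside the mitochondrion (chromosome 4, 107903981 to 107923610, minus strand), was at 155, 236, 201 and 279 CPM in S727A and 330.0, 257, 277 and 329 CPM in WT. S727A 4 lay above WT 2 and WT 3, while the other S727A libraries were below all WT libraries. The log2 fold change of Cpt2 was -0.46 ± 0.16 (edgeR SE, adjusted p = 0.194), and the difference between the values of Cpt2 and Cpt1b was not tested. Slc25a20, the carnitine-acylcarnitine carrier of the inner membrane, was at 125, 138, 129.8 and 166 CPM in S727A and 192, 162, 146 and 169 CPM in WT, with S727A 4 again above WT 2 and WT 3. It had a log2 fold change of -0.26 ± 0.11 (edgeR SE, adjusted p = 0.252). Cpt1a had one of -0.08 ± 0.18 (SE), with S727A 4 at the top (94.2 CPM) and S727A 2 at the bottom (47.6 CPM) of all 8 libraries.

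Malonyl-CoA, the inhibitor of the outer carnitine enzyme, is made by acetyl-CoA carboxylases and removed by malonyl-CoA decarboxylase (Mlycd). Acaca, the cytosolic carboxylase of fatty acid synthesis (chromosome 11, 84129672 to 84401651, plus strand), had the smallest p of the set. It was at 21.2, 21.0, 19.4 and 19.6 CPM in S727A, a narrow range, and at 24.9, 30.6, 25.6 and 40.5 CPM in WT. The groups did not overlap, and the log2 fold change was -0.58 ± 0.15 (edgeR SE, adjusted p = 0.118). WT 4 and WT 2, the highest libraries for Acaca, were also the highest for white adipocyte markers (50.2 and 35.7 CPM). The part of these in the result was not tested. Without WT 4 its log2 fold change was -0.41, and without WT 2 it was -0.58 (edgeR adjusted p of 0.162 and 0.249).

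Acacb, the carboxylase at the mitochondrial surface that is thought to supply the malonyl-CoA acting on Cpt1b (chromosome 5, 114146535 to 114250761, plus strand), was far more abundant. Acaca made up 3.64% to 7.03% of the summed FPKM of the pair over the 8 libraries. Acacb was at 391, 396, 385 and 507 CPM in S727A and 552, 531, 479.6 and 515 CPM in WT. S727A 1 to 3 lay close together below all WT libraries and S727A 4 within the WT range. The log2 fold change was -0.31 ± 0.10 (edgeR SE, adjusted p = 0.171), and -0.41 without S727A 4 (edgeR adjusted p = 0.027). That run drops the highest S727A value of Acacb. With any other single library left out, the edgeR adjusted p was 0.116 to 0.382. Mlycd had a log2 fold change of -0.13 ± 0.14 (SE) and was highest in S727A 4 (128 CPM) and lowest in S727A 3 (75.2 CPM).

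The 12 genes of beta-oxidation had small values throughout, from -0.26 for Hadha to 0.12 for Acads, and their median on the log2 scale was -0.11. Of these, 10 (83.3%) had a fold below 0, against 50.6% of all tested genes. At an edgeR unadjusted p under 0.05, 1 (8.33%) was lower, near the 8.79% of all tested genes. The acyl-CoA dehydrogenases, which take the first step for chains of different length, gave -0.12 ± 0.10 for very long (Acadvl), -0.11 ± 0.12 for long (Acadl), -0.11 ± 0.12 for medium (Acadm) and 0.12 ± 0.10 for short chains (Acads, SE). The enoyl-CoA hydratase Echs1 was at 0.05 ± 0.08 and the hydroxyacyl-CoA dehydrogenase Hadh at -0.09 ± 0.10 (log2 fold change, SE). Acaa2, the thiolase, was at -0.17 ± 0.13. The auxiliary enzymes for unsaturated chains were at -0.20 ± 0.11 (Decr1), -0.10 ± 0.10 (Eci1) and -0.12 ± 0.10 (Eci2). WT 1 was the highest library for 9 of these 12 genes.

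Hadha and Hadhb encode the alpha and beta subunits of the mitochondrial trifunctional protein, which carries out the later steps for long chains. They are transcribed away from each other on chromosome 5 (Hadha at 30118304 to 30155162, minus strand, and Hadhb at 30155248 to 30184593, plus strand), with 85 bases between the annotated starts. The promoter window of Hadhb in RefSeq (GRCm38.p6, chr5:30155003-30155302, plus strand, 250 bases before to 50 after its start) is shown because 228 of its bases also belong to the Hadha window. Capitals mark the 85 bases between the 2 gene starts of GENCODE. The window itself is set by the RefSeq start of Hadhb, which is not the same base.
Hadhb: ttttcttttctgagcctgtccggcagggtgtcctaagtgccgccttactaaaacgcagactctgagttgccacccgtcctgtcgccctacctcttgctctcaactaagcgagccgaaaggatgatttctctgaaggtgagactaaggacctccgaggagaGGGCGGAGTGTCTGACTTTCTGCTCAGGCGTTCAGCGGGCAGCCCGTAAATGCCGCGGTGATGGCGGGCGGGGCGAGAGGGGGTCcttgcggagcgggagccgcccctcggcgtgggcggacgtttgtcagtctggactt
Hadha was at 1373, 1465, 1442 and 1628 CPM in S727A and 2079, 1878, 1479.9 and 1635 CPM in WT, with a log2 fold change of -0.26 ± 0.11 (edgeR SE, adjusted p = 0.258). For Hadhb the values were 1384, 1755, 1533 and 1876 CPM in S727A and 1874, 1560.4, 1569.9 and 1888 CPM in WT, with a log2 fold change of -0.07 ± 0.12 (edgeR SE, adjusted p = 0.776). Both genes overlapped between the groups, and their order over the libraries was not the same. The ratio of Hadha to Hadhb FPKM was 0.584 and 0.633 in WT 1 and WT 2 and 0.440 to 0.523 in the other 6 libraries.

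Genes of the electron transfer flavoprotein, the acceptor of electrons from the dehydrogenases, had values close to each other. Etfb, the beta subunit, was at 286, 316, 275 and 303 CPM in S727A and 420.3, 393, 292 and 315 CPM in WT. WT 1 and WT 2 lay above all S727A libraries while WT 3 and WT 4 lay within their range. The log2 fold changes were -0.27 ± 0.12 for Etfb, -0.15 ± 0.09 for the alpha subunit gene Etfa and -0.21 ± 0.10 for Etfdh, the oxidoreductase that feeds ubiquinone (SE, edgeR adjusted p of 0.263, 0.397 and 0.277). Without WT 1 the value of Etfb was -0.18 and that of Etfdh -0.13.

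Pdk4 and Ucp3 are classical targets of PPAR-alpha and respond to fasting. Pdk4, a kinase that shuts off pyruvate dehydrogenase and so favours fat over glucose (chromosome 6, 5483351 to 5496309, minus strand), was the gene with the largest positive value. It was at 159, 248, 296 and 337 CPM in S727A and 152, 79.5, 207 and 186 CPM in WT. S727A 2 to 4 lay above all WT libraries, while S727A 1 lay between WT 1 and WT 4. Group means were 259.8 ± 76.4 and 156 ± 55.9 CPM (SD, 4 libraries each), and the log2 fold change was 0.73 ± 0.33 (edgeR SE, adjusted p = 0.297).

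Ucp3, an uncoupling protein of the inner membrane (chromosome 7, 100472990 to 100486432, plus strand), varied most among the S727A libraries. It was at 20.9, 16.9, 13.6 and 82.7 CPM in S727A and 43.9, 25.9, 36.7 and 45.2 CPM in WT. S727A 4 was above, and S727A 1 to 3 were below, all WT libraries. With all libraries the log2 fold change was -0.18 ± 0.61 (edgeR SE, adjusted p = 0.918), and without S727A 4 it was -1.14 (edgeR adjusted p = 0.0226). That run drops the highest value of Ucp3. With any other single library left out, the edgeR adjusted p was 0.887 to 0.999. The RefSeq promoter window of Ucp3 (GRCm38.p6, chr7:100472741-100473040, plus strand) is shown because it held the core hexamer of nuclear receptor elements 2 times. Capitals mark the hexamer AGGTCA, at positions 102 and 207 counted from the 5′ end.
Ucp3: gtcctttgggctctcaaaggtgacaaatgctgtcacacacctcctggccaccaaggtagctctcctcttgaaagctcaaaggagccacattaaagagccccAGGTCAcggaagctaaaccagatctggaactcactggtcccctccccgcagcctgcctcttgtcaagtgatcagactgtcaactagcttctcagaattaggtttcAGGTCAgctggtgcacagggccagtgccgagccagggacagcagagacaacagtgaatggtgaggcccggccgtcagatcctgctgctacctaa
The hexamer, on either strand, was present in the windows of 7 of the 27 genes that the promoter table holds (25.9%) and of 18.1% of all genes in that table. Those 7 were Acacb, Acadm, Acadvl, Cd36, Cpt1a, Echs1 and Ucp3. The full PPAR element with exact letters AGGTCANAGGTCA, which contains the hexamer, was in 0 of the 27 and in 0.0481% of all genes, and the ERR element TCAAGGTCA in 0 of the 27 and in 0.466%. A match is a description of letters, and the absence of one says only that these letters are not in a window of 300 bases.

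Across the set, 2 libraries stood out within their groups. S727A 4 held the highest value of the 4 S727A libraries for 21 of the 32 genes, against 29.8% of all tested genes, and WT 1 the highest of the 4 WT libraries for 24 of the 32, against 22.3%. WT 3 was the lowest WT library for 20 genes and S727A 3 the lowest S727A library for 15, against 23.1% of all tested genes for each. For S727A 4 the largest ratios to the mean of S727A 1 to 3 were 4.84 for Ucp3, 2.46 for Acot1, 1.92 for Slc27a1, 1.69 for Acot2 and 1.58 for Cpt1a. The ratio was below 1 for 7 genes, among them Acadm, Cd36 and Lpl. S727A 4 is also the S727A library almost without Y-linked counts (9), and WT 4 is the WT library with 6. Of the 5 genes just named, WT 4 held the highest WT value for Ucp3 (45.2 CPM) and Slc27a1 (180.0 CPM), and WT 1 for Acot1, Acot2 and Cpt1a. The part of this in the result was not tested.

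**Figure D4:**
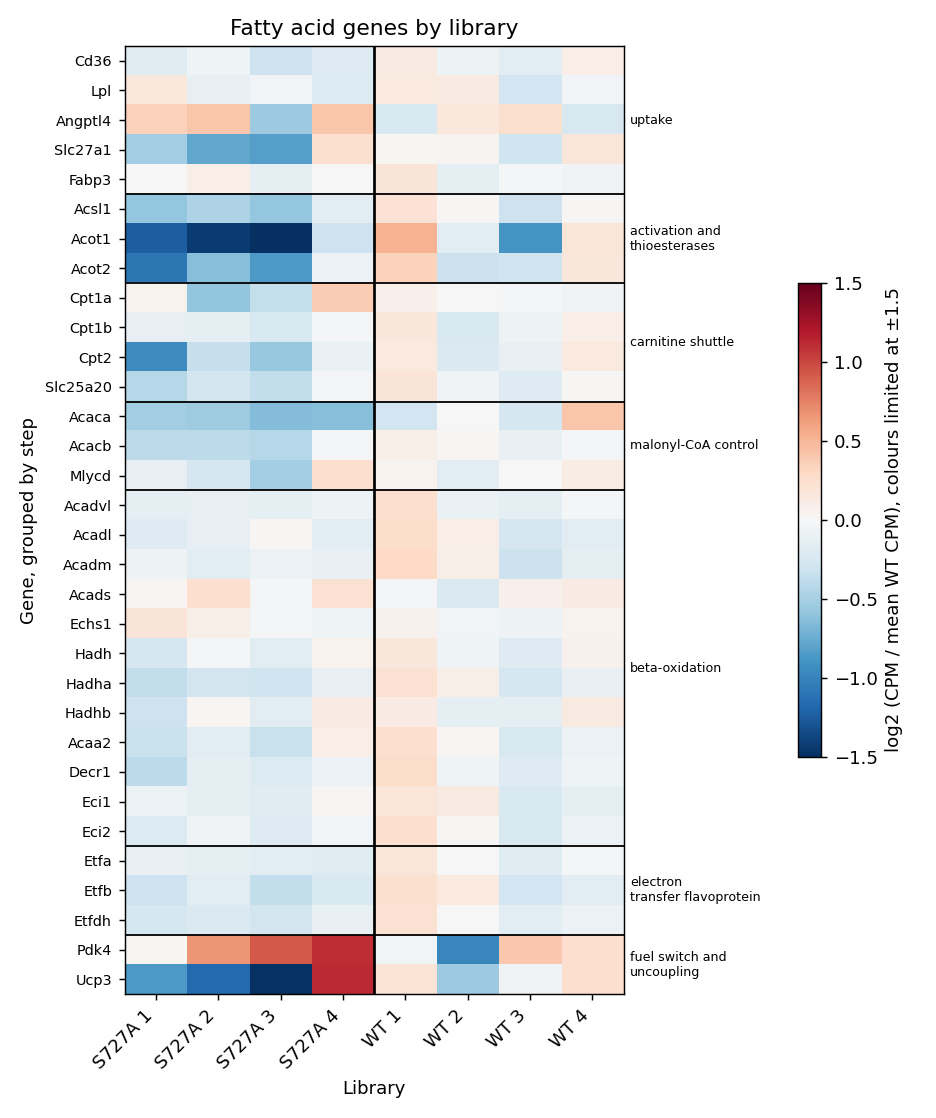
Log2 ratio of each gene's CPM to its mean in WT, for 8 libraries (columns) and 32 genes (rows, grouped by step), with colours limited at ±1.5. S727A 1 to 3 are blue for activation, Cpt2, Acaca, Acacb and Ucp3, S727A 4 is close to WT or above it for most of these, and WT 1 is mostly red.

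Without S727A 4, 7 of the 32 genes passed as lower and 0 as higher (edgeR adjusted p under 0.05), where that comparison called 2.44% of all tested genes lower and 2.27% higher. These were Ucp3, Acot1 (-1.58), Acot2 (-0.85), Slc27a1, Cpt2 (-0.60), Acsl1 (-0.54) and Acacb, with adjusted p from 0.0189 to 0.046. They belong to uptake, activation, shuttle, malonyl-CoA control and uncoupling, and none to beta-oxidation or electron transfer. That division by step holds for this run only. With all 8 libraries, the genes lower at an edgeR unadjusted p under 0.05 were 0 of 5 of uptake and 0 of 2 of fuel switch and uncoupling. They were 3 of 3 of activation, 2 of 4 of the shuttle and 2 of 3 of malonyl-CoA control. For electron transfer they were 2 of 3 and for beta-oxidation 1 of 12, where 8.79% of all tested genes were lower. In 11 of the 32 genes S727A 1 to 3 all lay below all WT libraries, where 11.3% of tested genes did, and in 0 all above (10.2%). S727A 4 was the highest S727A library for 21 of the 32 genes, so leaving it out favours lower values in the set. The shares of all genes do not correct for this, and the counts without S727A 4 are no separate evidence of a lower level. With S727A 4 kept, 1 of the 32 lay below all WT libraries without overlap, where 4.36% of tested genes did. Without WT 3, 2 genes passed as lower, Acsl1 and Acaca (0.847% of all genes were called lower and 1.25% higher). Without each of the other libraries in turn 0 passed. Without S727A 4 and WT 4 together 1 passed as lower, Slc27a1 (-0.63, edgeR adjusted p = 0.039), and 0 as higher, where 1.04% and 0.824% of all tested genes did. The other 6 genes had log2 fold changes there of -1.51 (Acot1), -1.05 (Ucp3), -0.79 (Acot2), -0.55 (Cpt2), -0.53 (Acsl1) and -0.41 (Acacb), with edgeR adjusted p from 0.0503 to 0.0895. DESeq2 with all 8 libraries called 2 as lower, Acaca (adjusted p = 0.0194) and Acsl1 (adjusted p = 0.0381), and 0 as higher, where it called 1.91% and 2.2% of genes. It gave no adjusted p for Ucp3.

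Other genes of fatty acid metabolism were counted in fixed lists, which together held 92 genes, 85 of them tested. None passed (edgeR adjusted p of 0.0863 or more), 57 (67.1%) had a fold below 0, against 50.6% of all tested genes, and the median log2 fold change was -0.14. At an unadjusted p under 0.05, 16 (18.8%) were lower and 4 higher, against 8.79% and 8.97% of all tested genes. Without overlap of the libraries 6 (7.06%) lay lower and 2 higher, against 4.36% and 4.07% of all tested genes. Among 16 tested genes of triglyceride storage and lipolysis 11 (68.75%) had a fold below 0. Lpin1, a phosphatidate phosphatase that also acts as a coactivator of PPAR-alpha, was at 167, 185, 195 and 222 CPM in S727A and 275, 262, 256 and 297 CPM in WT. It had the smallest p of all these lists, without overlap, and a log2 fold change of -0.50 ± 0.10 (edgeR SE, adjusted p = 0.0863).

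Of 15 regulators of the PPAR, PGC-1 and ERR group 12 (80%) had a fold below 0, where 50.6% of all tested genes did. Ppargc1b, a coactivator of mitochondrial genes, was at 64.5, 49.5, 56.5 and 66.4 CPM in S727A and 103, 90.2, 70.5 and 86.3 CPM in WT. Its groups did not overlap, with a log2 fold change of -0.56 ± 0.13 (edgeR SE, adjusted p = 0.0992). Ppara, the receptor itself, had one of -0.22 ± 0.10 (edgeR SE, adjusted p = 0.268). The PGC-1 alpha gene Ppargc1a was at 0.18 ± 0.22 and Esrra at -0.02 ± 0.10 (log2 fold change, SE).

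Peroxisomal genes showed a median of -0.14, with 13 of 17 tested (76.5%) below 0, against 50.6% of all tested genes. Abcd2, a transporter of very long acyl-CoA, was at 5.33 ± 0.919 CPM in the S727A and 9.25 ± 3.10 CPM in the WT libraries, and Phyh, a hydroxylase of branched chains, at 523 ± 35.6 and 635 ± 64.6 CPM (SD, 4 libraries each). Neither overlapped between groups, and neither passed (edgeR adjusted p of 0.136 and 0.171). In this list 3 of the 17 genes (17.6%) lay lower without overlap, against 4.36% of all tested genes, and 0 lay higher. All 3 tested genes of carnitine supply and export were below 0, Slc22a5, the plasma membrane carnitine transporter, with a log2 fold change of -0.32 ± 0.14 and Crat, which exports acetyl groups, with -0.26 ± 0.11 (SE). In the further activation genes 6 of 9 were below 0, with Acot11 at -0.39 ± 0.12 and Acot9 at 0.32 ± 0.11 (log2 fold change, SE). The further genes of mitochondrial oxidation were divided evenly, with 4 of 8 below 0 and a median of -0.01.

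Some genes lay on the other side. In the list of further uptake genes 2 of 7 tested (28.6%) had a fold below 0, against 50.6% of all tested genes. The median log2 fold change of that list was 0.05. Gpihbp1, which anchors lipoprotein lipase on capillary endothelium, was at 111, 112, 98.8 and 73.6 CPM in S727A and 55.4, 53.4, 73.6 and 79.6 CPM in WT. Only S727A 4 lay within the WT range, and the log2 fold change was 0.59 ± 0.16 (edgeR SE, adjusted p = 0.135). Summed endothelial markers were at 765 to 869.8 CPM in S727A and 777 to 888 CPM in WT. Prkag2, a regulatory subunit of AMP-activated kinase, was at 69.5, 53.4, 62.9 and 45.1 CPM in S727A and 41.4, 44.8, 42.7 and 38.9 CPM in WT. Its libraries did not overlap, and the log2 fold change was 0.46 ± 0.12 (edgeR SE, adjusted p = 0.127). The list of AMP kinase subunits as a whole did not lie on that side. Of its 7 genes 4 (57.1%) had a fold below 0, and the median log2 fold change was -0.06. At an edgeR unadjusted p under 0.05, 1 was lower and 2 were higher, against 8.79% and 8.97% of all tested genes. The list of further PPAR-alpha targets did not lie on the higher side either. Of its 10 genes 6 were tested, and 4 of these (66.7%) were below 0.

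Cell types other than myocytes are known to express part of the set, such as Lpl, Cd36 and Acaca. These whole-heart data do not assign reads to cell types. Macrophage markers had 6 of 6 folds below 0, none past the test, with summed levels of 151 to 209 CPM against 217 to 353 CPM in WT. All 5 fibroblast markers were above 0 (1451 to 1632 against 1038 to 1585 CPM). Of the 10 cardiomyocyte markers 7 were above 0 and 3 below, none past the test. Of 4 brown adipocyte markers the defining Ucp1 was at 0 in all S727A libraries, at 0.09 CPM in WT 2 and at 4.51 CPM in WT 4, and Cidea, which heart tissue also expressed, was at 25.0 to 29.8 CPM in S727A and 26.2 to 28.5 CPM in WT. Atrial markers summed to 119.6 to 171 CPM in S727A and 107 to 266 CPM in WT, red cell markers to 1584 to 3396 and 1253 to 2304 CPM, and the listed hepatocyte markers to no more than 2.80 CPM. The part of these in the results on fatty acid genes was not tested.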

How the data were processed

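Whole-heart mRNA was sequenced in 4 libraries from S727A mice and 4 from WT mice (whole heart per the series' design text, stranded kit per the labels' protocols). FastQC, HISAT2, Bowtie2 and the genome GRCm38.p6 were used, per the submitters' processing notes. The sources used here name no tool for counting. The deposited table held estimated counts per gene (6.06% to 7.62% of entries not whole, tolerance 1e-06), FPKM made by the authors, and the authors' log2 ratio, p-value and q-value, per the file headers. Estimated counts were rounded, filtered by filterByExpr (minimum count 10, total 15) and tested with edgeR 4.0.16 in R 4.3.3 (TMM, robust quasi-likelihood fit, legacy setting, two-sided, genotype as the only term, Benjamini-Hochberg threshold 0.05). SEs come from the F statistic. DESeq2 1.42.0, limma 3.58.1 and other settings were alternatives, and the procedure was tested on simulated data. Library pairs differed by a chi-square of 9.13 to 39.0 per degree of freedom, so none was a repeat.

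Positions come from GENCODE M21 and promoters from RefSeq, both GRCm38. Counting error follows from depth: the totals of 10577619 to 13305124 counts leave Acot1 and Angptl4 with few reads. The members and lists were chosen with earlier results of these data known. Values per library were given for the 8 members of smallest p and for Cpt1b, Cd36, Pdk4, Angptl4 and Ucp3, with up to 3 genes of each further list. Per-library values of Slc27a1, Hadhb and Etfb, and further genes such as Ppara, Ppargc1a and Esrra, were chosen after their values were seen. A gene of a further list is not reported here.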

Additional observations from a re-analysis of the deposited data

Results flagged for a closer look

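Within groups of 4 libraries, 64 sets of CPM values (32 genes, 2 groups) were searched for a library far from the others by Dixon's ratio of gap to range at the 95% level, which chance alone passes in about 1 of 20 groups, and 3 passed. Acacb in S727A 4 was at 507 CPM against 385 to 396 CPM in the other S727A libraries, a ratio of 0.917. Ucp3 in S727A 4 was at 82.7 CPM against 13.6 to 20.9 CPM, a ratio of 0.894. Angptl4 in S727A 3 was at 2.76 CPM against 5.14 to 5.40 CPM, a ratio of 0.900.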

How the results depend on the processing

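Over all tested genes, 19 were called (13 lower, 6 higher). Other normalizations, filters and the quasi-likelihood fit without the legacy setting gave 17 to 27. The count was 7 when scaled to cardiomyocyte markers, 534 with DESeq2, 6 with limma voom, 6 with limma on log2(FPKM + 1) and 4 on log2(FPKM + 0.1). It was 0 without WT 1 and WT 4, 242 without S727A 4 and WT 4, and 0 to 617 when 1 library was left out, the highest without S727A 4. Of the fatty acid genes 0 were called, but 2 with DESeq2, 1 without S727A 4 and WT 4, and 0 to 7 with 1 library left out. The median of the set stayed negative in every alternative run, from -0.25 to -0.06. Shared replicate numbers did not pair the libraries (correlations of deviations -0.10 to 0.07), and with a replicate block 2 genes and 0 of the set were called. Single genes changed sign as follows, and the cause was not tested. Echs1 was at -0.062 when scaled to cardiomyocyte markers. Without WT 1 and WT 4, log2 fold changes were 0.011 for Lpl, 0.070 for Fabp3, 0.021 for Cpt1b, 0.0030 for Acadvl, 0.037 for Hadh, 0.065 for Hadhb and 0.099 for Ucp3. With 1 library left out they ran from -0.13 to 0.0054 for Lpl, -0.051 to 0.062 for Fabp3, -0.27 to 0.063 for Cpt1a and -1.14 to 0.085 for Ucp3. Among single-gene values, 643 kept direction and side of the threshold, 12 newly passed it and 17 changed sign. Low counts limit Acot1 and Angptl4 most.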
